A study of Bos taurus with 16 samples.

Results

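Methylation was described at 5 bovine genes, ANKRD53, ARHGEF3, ZNF775, RNF186 and RSPH6A, which were chosen by the measured difference in mean methylation between CON_P and CON_noP, higher in CON_P. All positions that carried 1 of these gene symbols were taken. This gave 84 cytosine positions (sites) of 199395 sites measured, and 5 of 10781 genes with a site. ANKRD53 had 15 sites, ARHGEF3 had 9, ZNF775 had 25, RNF186 had 16 and RSPH6A had 19. The cells were collected by cytobrush, a brush that takes cells from the surface of the uterine lining, from postpartum dairy cows 4 to 8 h after artificial insemination at 50 to 64 days postpartum. The CON_P and CON_noP groups came from cows on the control diet that did or did not become pregnant from that insemination. The MET_P and MET_noP groups came from cows that received rumen-protected methionine, a methyl-donor amino acid coated to pass the rumen, from day 12 postpartum, again split into pregnancy and no pregnancy. All cows had calved recently and were inseminated, and the outcome was known only after the sample was taken. Each group held 4 RRBS libraries. RRBS, reduced representation bisulfite sequencing, cuts DNA with MspI and reads the methylated share of cytosines in the fragments, mostly near CpG-rich sequence.

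A methyl group on the cytosine of a CpG is copied to the new strand when a cell divides and is added or removed by dedicated enzymes. In promoters it tends to go with silence of the gene, and within gene bodies it is often high in active genes as well. Sites a few bases apart are usually methylated together, because a stretch of DNA tends to be methylated or unmethylated as a unit in any 1 cell. An intermediate percentage in a sample can come from a mixture of cells with and without the mark, and cytobrush samples hold mainly epithelial cells with some leukocytes. The 5 genes are not members of 1 known pathway. ARHGEF3 is a guanine nucleotide exchange factor that activates small GTPases, RNF186 is a RING-type ubiquitin ligase of the endoplasmic reticulum membrane, ANKRD53 is an ankyrin repeat protein of the mitotic spindle, RSPH6A is a radial spoke head protein of the sperm flagellum, and ZNF775 is a zinc finger protein.

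The deposited values were percentages without read counts, so the depth behind each percentage was not given and no counting interval was computed. Libraries are named here by the number in the deposited column headings, such as S14. Mean methylation over all sites was 62.5% ± 0.967 in CON_noP, 63.5% ± 1.47 in CON_P, 63.8% ± 0.978 in MET_noP and 63.9% ± 0.524 in MET_P (SD, n = 4 each). The study isolated DNA from more cytobrush samples than it made libraries, and how many cows a library holds is not given, so each p-value measures the spread between libraries. The higher means in CON_P chose the genes, so differences between CON_P and CON_noP are a description without a test. Diet differences use the same CON libraries and are likewise a description. The 8 MET libraries had no part in the choice, and MET_P was tested against MET_noP.

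The CON_P mean was higher by 17.9 percentage points in ANKRD53, 14.7 in ARHGEF3, 12.7 in RNF186, 12.4 in ZNF775 and 9.29 in RSPH6A. Among 5726 genes with at least 5 sites, 2 genes had a larger positive difference than ANKRD53, 5 a larger one than ARHGEF3, 12 than RNF186, 14 than ZNF775 and 49 than RSPH6A, and the median gene differed by 0.520 points. In cows on methionine the same genes had no common direction. The MET_P mean minus the MET_noP mean was -12.2 points for ARHGEF3, -5.30 for RSPH6A and -2.33 for RNF186, and it was 2.17 points for ANKRD53 and 3.75 for ZNF775. Of the 5 genes, 0 passed an adjusted p of 0.05 (limma with Benjamini-Hochberg adjustment over 8719 genes with at least 2 sites, of which 0 or 0% passed; 487 of all genes, 5.59%, had an unadjusted p under 0.05, and 167, 1.92%, were lower in MET_P at that p). With 4 libraries in each group the smallest two-sided exact permutation p is 0.0286.

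**Figure D1:**
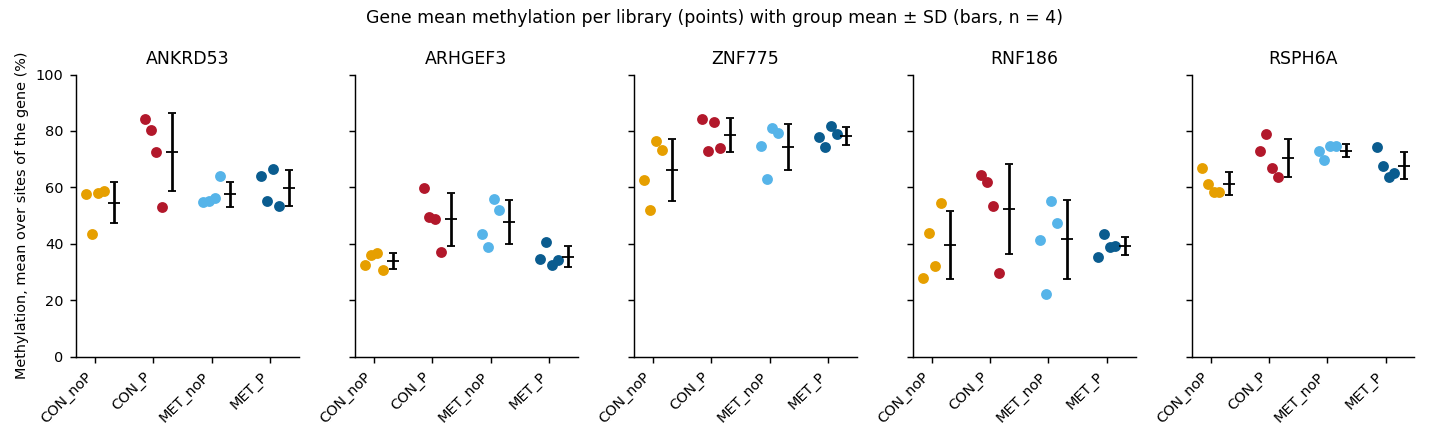
Mean methylation in percent over the sites of each gene (vertical axis) in the 16 libraries (points) of the 4 groups, with the group mean ± SD beside the points (n = 4). The 4 CON_P libraries lie above all CON_noP libraries in ARHGEF3 only, where the nearest are 36.96% and 36.91%, while the other genes overlap. In ARHGEF3 the MET groups stand in the opposite order, with a mean of 47.7% in MET_noP and 35.5% in MET_P.

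The 84 sites were not spread evenly over the genes but lay in dense runs on a few fragments. The median distance between neighbouring sites of a gene was 9 bases, and 16 groups of sites were formed when neighbours up to 100 bases apart were joined. Mean methylation over the 16 libraries was between 20% and 80% at 63 of the 84 sites (75%), against 34.3% of all sites. In CON_P, 72 of the 84 sites had a higher mean than in CON_noP (background 55.4% of all sites), 48 by more than 10 points (background 5.96%), and at 5 sites all CON_P libraries lay above all CON_noP libraries (background 1.22%). They were 13442364 in ANKRD53, 44070124 and 44070138 in ARHGEF3, 112812602 in ZNF775 and 132887677 in RNF186. These counts follow from how the genes were chosen and are given as a description. In each gene with several groups of sites the excess was held by 1 or 2 of them, as the map by position shows.

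**Figure D2:**
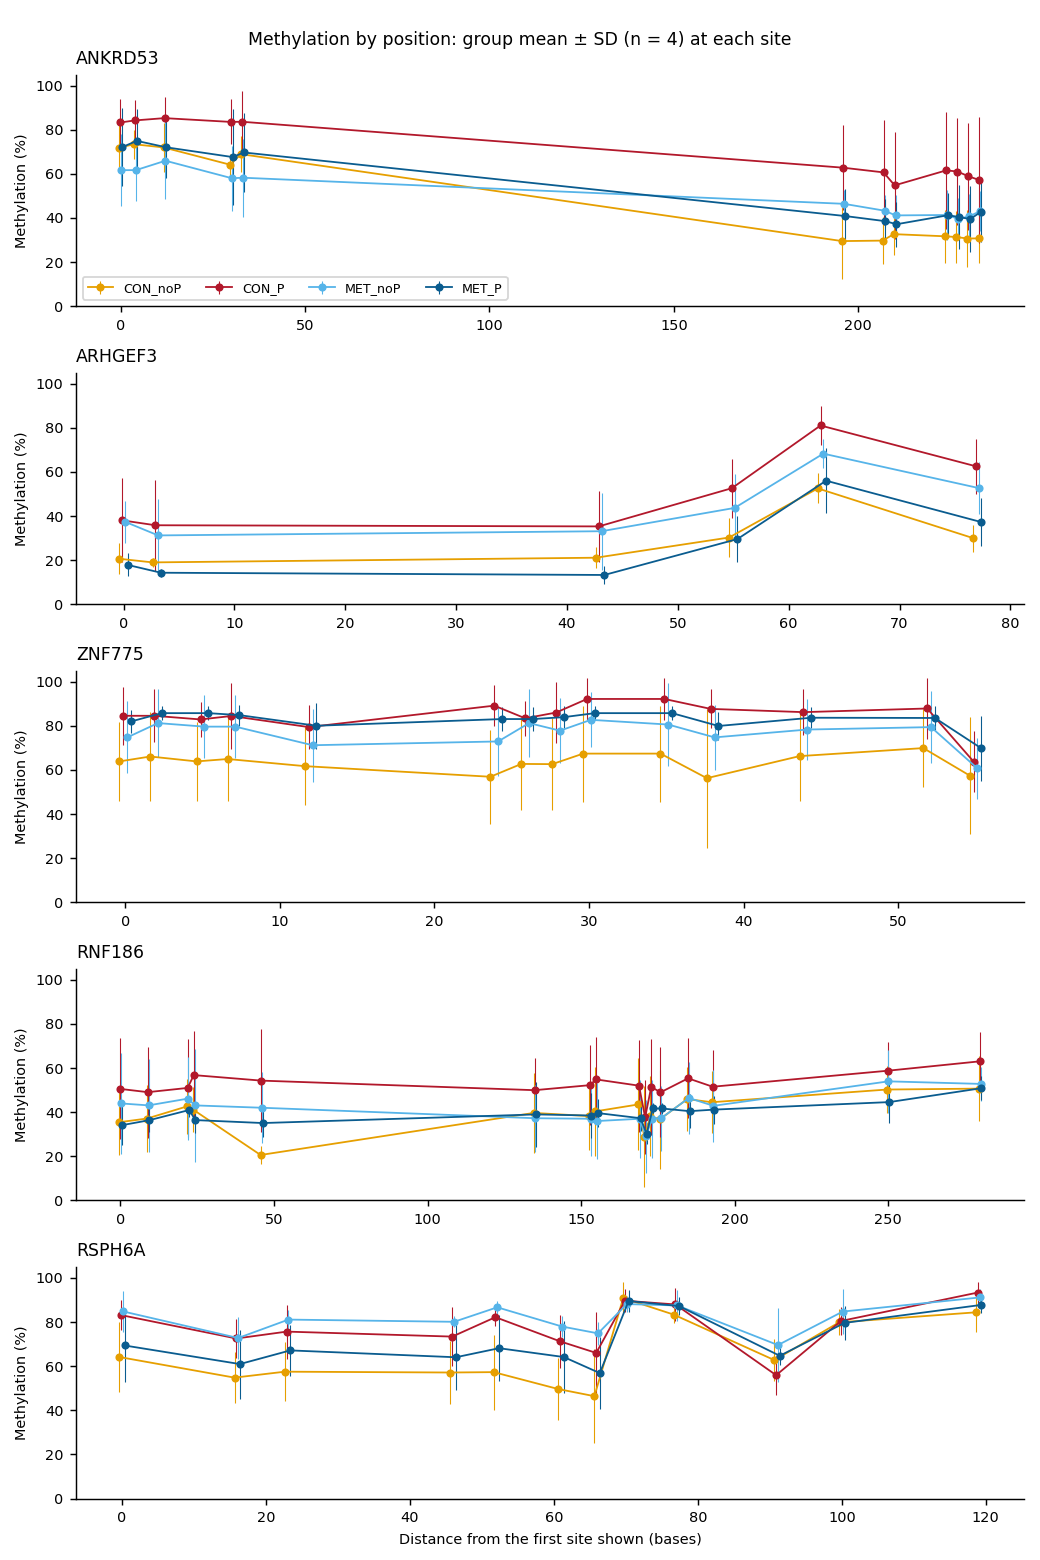
Methylation in percent (vertical axis) against the distance in bases from the first site shown (horizontal axis) for the densest part of each gene, as group mean ± SD at each site (n = 4, points shifted slightly sideways). CON_P stands above CON_noP over whole runs of neighbouring sites, and in RSPH6A the gap closes within 4 bases, from a difference of 19.6 points over 7 sites to 1.22 over the next 5. The percentages on either side of this step fit different read counts, and whether they share reads was not tested.

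ANKRD53 sites lay on chromosome 11 between 13438062 and 13442567 (ARS-UCD1.2), and the study's annotation puts those it listed in exons. The gene mean was 57.9%, 43.6%, 58.1% and 58.8% in the CON_noP libraries S12, S16, S24 and S28. It was 84.2%, 80.5%, 72.5% and 52.9% in the CON_P libraries S14, S18, S26 and S30. All but S30 of these CON_P libraries stood above every CON_noP library, and S30 stood among them, so the groups overlapped. The MET_noP libraries gave 54.7%, 55.3%, 56.3% and 64.0%, and the MET_P libraries 64.0%, 55.2%, 66.4% and 53.3%. The MET groups overlapped fully and differed by 2.17 points (M value difference 0.13, SE 0.22, adjusted p = 0.957 by limma, exact permutation p = 0.714), where the M value is log2 of the methylated over the unmethylated percent.

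The 3 ANKRD53 sites at 13438062 to 13438100 were highly methylated in every group, with means of 84.1% in CON_noP and 83.7% in CON_P. The middle 5 sites at 13442334 to 13442367 had 70.1% ± 7.33 in CON_noP and 84% ± 10.3 in CON_P. The last 7 sites, within 38 bases from 13442530, carried most of the difference, with 30.9% ± 11.8 in CON_noP and 59.6% ± 23.9 in CON_P (SD, n = 4). Over these 7 sites S14 had 77.6%, S18 77.9%, S26 55.2% and S30 27.5%, against 27%, 15.9%, 40.7% and 40.0% in the CON_noP libraries. S30 was thus lower than S24 and S28, and S14 and S18 were alike. Over these 7 sites S18 took only the values 72.7% and 81.8%, and S26 only 41.2%, 58.8% and 68.75%. S12 took only 18.75%, 23.5% and 29.4%. Such few values fit small read counts in these libraries. The MET means over the same 7 sites were 42.2% ± 8.36 in MET_noP and 40.1% ± 12.1 in MET_P. The last 7 sites moved as 1 unit, since the SD among the sites within a library was 3.74 points (median over libraries) and the SD between libraries within groups was 15.2. Another 4 sites at 13442578 to 13442602, which carry no gene name in the deposited values, continued the run with a difference by outcome of 32.3 points in the control diet and -0.33 in the methionine diet. The largest single differences in the control diet were 33.3 points at 13442530, 30.9 at 13442541 and 29.9 at 13442558. In the methionine diet the largest were 13.3 points at 13442338, 11.4 at 13442367 and 10.4 at 13442334, with adjusted p between 0.941 and 0.953.

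ARHGEF3 sites lay on chromosome 22 between 44070061 and 44150538, and the study's annotation puts those it listed in an intron. The gene mean was 32.6%, 36.0%, 36.9% and 30.9% in the CON_noP libraries and 59.8%, 49.4%, 48.9% and 37.0% in the CON_P libraries. The lowest CON_P library, S30, had 36.96% and the highest CON_noP library, S24, had 36.91%. These groups thus nearly met but did not overlap (108 of 8719 genes, 1.24%, were separated in this direction). The MET_noP libraries gave 43.7%, 39.1%, 56% and 52.1%. The MET_P libraries gave 34.5%, 40.8%, 32.5% and 34.2%, and only S19 reached into the MET_noP range. The difference was -12.2 points (M value difference -0.72, SE 0.23), with an unadjusted p of 0.0144 and an adjusted p of 0.810 by limma, and an exact permutation p of 0.0571. With neighbouring sites averaged into clusters first it was -5.38 points (unadjusted p = 0.0983, adjusted p = 0.894 by limma). Among the 5726 genes with at least 5 sites, 4 had a more negative difference between MET_P and MET_noP.

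The first 6 ARHGEF3 sites, within 78 bases from 44070061, differed most in both diets. Their mean was 28.2%, 34.8%, 26.7% and 26.1% in the CON_noP libraries and 66%, 55.6%, 48.7% and 33.3% in the CON_P libraries. It was 39.5%, 30.8%, 56.1% and 51.1% in MET_noP and 22.8%, 38.3%, 24.6% and 26.6% in MET_P. The levels of CON_noP and MET_P were thus low and close together, and those of CON_P and MET_noP were higher and wider. The difference was 22.0 points in the control diet and -16.4 in the methionine diet. Tested over 27286 clusters of at least 3 neighbouring sites, of which 0 (0%) passed the adjusted threshold and 1443 (5.29%, with 2.51% lower in MET_P) had an unadjusted p under 0.05, this cluster had an unadjusted p of 0.0213 and an adjusted p of 0.920 by limma. Within the 6 sites the level differed by position, from 8.60% in S15 at 44070104 to 91.7% in S18 at 44070124. In order of position S18 had 41.7%, 41.7%, 33.3%, 50%, 91.7% and 75%. S26 had 38.5%, 30.8%, 30.8%, 61.5%, 76.9% and 53.8%. The values of these CON_P libraries fit small read counts, not far above the authors' minimum of 10 reads, so single extremes are imprecise. The site at 44070124 was the most methylated of the 6 in every group and the 3 sites before 44070116 were the least.

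At ARHGEF3 position 44070061 the CON_noP libraries had 13.8%, 30.4%, 18.6% and 19.7%, and the CON_P libraries had 59.0%, 41.7%, 38.5% and 13%. The MET_noP libraries had 35.7%, 25%, 42.3% and 46.7% there, and the MET_P libraries had 14%, 25%, 14.1% and 18.3%. Of the 84 sites this one had the lowest unadjusted p in the methionine diet by limma (p = 0.0107, adjusted p = 0.890, exact permutation p = 0.0571, difference -19.6 points), and the groups met at 25%. Positions 44070064 and 44070104 differed by -16.9 and -19.8 points, with adjusted p of 0.931 at both. In the control diet the largest differences were 32.6 points at 44070138, 28.5 at 44070124 and 22.3 at 44070116. All CON_P libraries lay above all CON_noP libraries at 44070124 and 44070138. The pair at 44150506 and 44150538, at the other end of the gene's sites, had 53.4% in CON_noP and 53.7% in CON_P, and 72.8% ± 5.43 in MET_noP and 60.8% ± 12.7 in MET_P (exact permutation p = 0.171).

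RSPH6A sites lay on chromosome 18 between 53336977 and 53342773, and the study's annotation puts those it listed in an exon and a neighbouring intron. The gene mean was 67.0%, 61.2%, 58.4% and 58.4% in the CON_noP libraries and 73.0%, 78.8%, 66.9% and 63.6% in the CON_P libraries. S12 lay above the lower 2 CON_P libraries, so the groups overlapped. It was 72.8%, 69.8%, 74.7% and 74.6% in MET_noP and 74.5%, 67.5%, 63.8% and 65.0% in MET_P. The difference between MET_P and MET_noP was -5.30 points (M value difference -0.35, SE 0.18, unadjusted p = 0.0828, adjusted p = 0.882 by limma, exact permutation p = 0.0857). MET_P library S15 alone stood within the MET_noP range. Without S15 the difference was -7.56 points with an unadjusted p of 0.00812 and an adjusted p of 0.894 by limma. Leaving out any other MET library gave an unadjusted p from 0.0580 (without S17) to 0.198 (without S27) by limma. With clusters averaged first the difference was -1.43 points (unadjusted p = 0.569 by limma).

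Within RSPH6A the difference in both diets was largest over 7 sites in 67 bases, from 53342654 to 53342720. Their mean was 74.6%, 54.5%, 41.3% and 50.6% in the CON_noP libraries and 80.8%, 84.3%, 72.7% and 61.7% in the CON_P libraries. It was 82.8%, 72.4%, 82.6% and 81.1% in MET_noP and 86.1%, 56.2%, 61.6% and 53.6% in MET_P. CON_P and MET_noP were high, and CON_noP and MET_P each had 1 high library, S12 and S15, and 3 lower ones. The difference was 19.6 points in the control diet and -15.4 in the methionine diet. The next 5 sites began 4 bases later, at 53342724, and had 80.2% ± 3.96 in CON_noP, 81.5% ± 5.32 in CON_P, 84.2% ± 7.71 in MET_noP and 81.8% ± 2.12 in MET_P. Over these 5 sites S12 took only the values 83.3%, 77.8%, 66.7% and 72.2%. They fit a smaller read count than its 79.7% at 53342654 and 68.3% at 53342670. The sites on either side of this step may thus come from different reads, which was not tested. The 3 sites near 53336977 had 26.1% in CON_noP and 33.2% in CON_P, and the 4 sites near 53341531 had 74.4% and 77.3%. The whole cluster of 12 sites differed by -9.99 points between MET_P and MET_noP (unadjusted p = 0.0781, adjusted p = 0.923 by limma).

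The largest RSPH6A differences between CON_P and CON_noP were 24.9 points at 53342706, 21.6 at 53342715 and 19.6 at 53342720. Between MET_P and MET_noP they were -18.5 at 53342706, -18.0 at 53342720 and -16.1 at 53342700. At 53342706 the MET_noP libraries had 84.9%, 83.3%, 88.9% and 89.5%, and the MET_P libraries had 90.1%, 64.1%, 61.1% and 57.2% (unadjusted p = 0.0440, adjusted p = 0.931 by limma). S15 was the highest of the 8 libraries and the other MET_P libraries were the lowest.

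**Figure D3:**
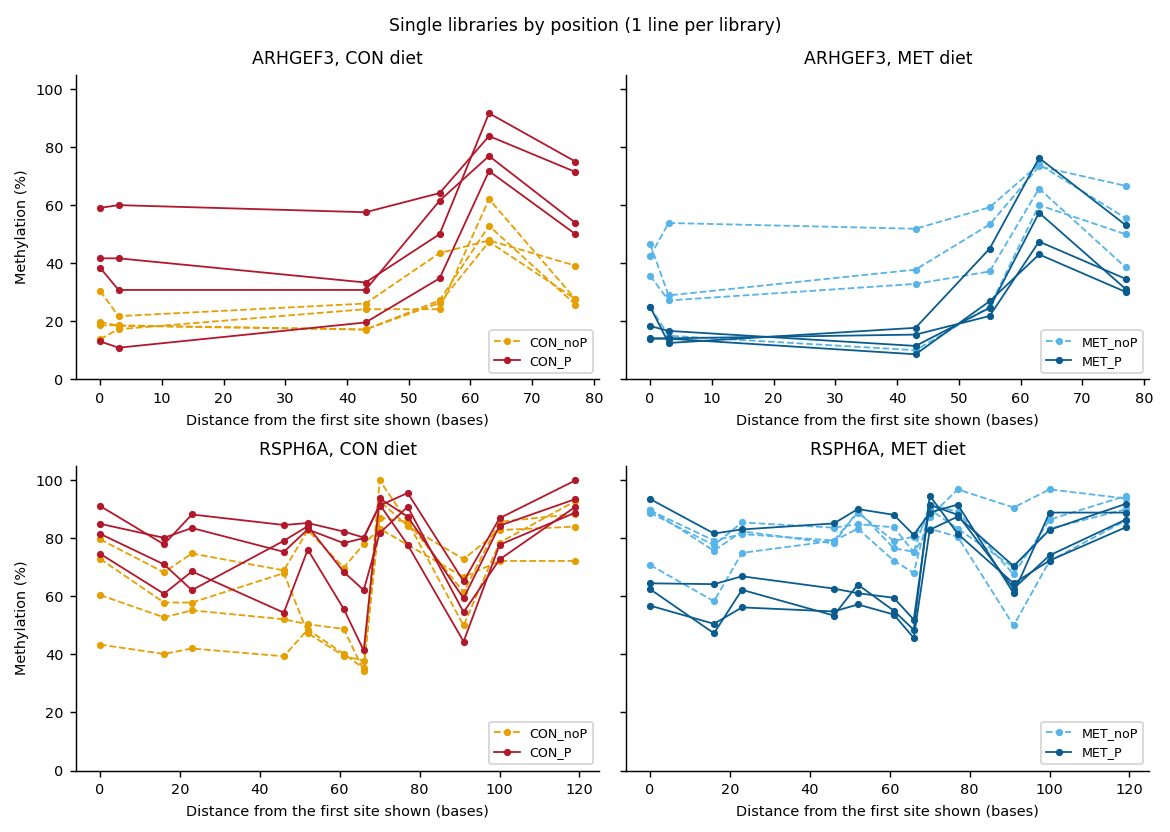
Methylation in percent of single libraries (1 line each) against the distance in bases from the first site shown, for ARHGEF3 (top) and RSPH6A (bottom), in the control diet (left) and the methionine diet (right); solid lines are libraries with pregnancy and dashed lines are libraries without. Solid lines lie mostly above dashed lines on the left and mostly below them on the right. In RSPH6A the lines of all groups mix from the 8th site on. Single libraries still spread there, from 44.4% in S14 to 90.6% in S25 at 53342745. The S15 line lies at the top of the methionine panel of RSPH6A, with 86.1% over the first 7 sites.

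ZNF775 sites lay on chromosome 4 between 112792053 and 112812633. The gene mean was 62.8%, 52.1%, 76.4% and 73.1% in the CON_noP libraries and 84.1%, 72.8%, 83.1% and 73.9% in the CON_P libraries. S12 and S16 were low, while S24 and S28 lay within or near the CON_P range. It was 74.5%, 63.0%, 80.9% and 79.5% in MET_noP and 77.9%, 74.3%, 81.6% and 79.1% in MET_P, which overlapped (difference 3.75 points, M value difference 0.26, SE 0.28, adjusted p = 0.937 by limma, exact permutation p = 0.543). The last 14 sites, within 56 bases from 112812578, held the difference. Their mean was 55.0%, 37.9%, 81.6% and 79.2% in CON_noP, 91.6%, 75.7%, 94.0% and 77.1% in CON_P, 78.9%, 55.4%, 88.0% and 84.8% in MET_noP, and 82.1%, 76.8%, 88.6% and 83.0% in MET_P. S12, S16 and S17, all from cows without pregnancy, were the only libraries below 60%. The first 11 sites of the gene differed by 1.24 points in the control diet and 1.07 in the methionine diet. They ranged from the pair at 112792053 and 112792122, with a mean of 7.38% in CON_noP and 7.70% in CON_P, to the 3 sites near 112811791, with 94.6% and 95.1%.

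In several libraries many of the last 14 ZNF775 sites shared 1 value. S16 had 40.0% at 10 of the 14 sites and S26 had 100% at 10 of 14, and the SD among the sites within a library was 7.10 points against 13.8 between libraries within groups. The 14 sites are therefore closer to 1 measurement per library than to 14. Over them the low CON_noP libraries took few values, S12 only 40%, 50% and 60%, and S16 only 20% to 50%. These are steps of 10 points, as a depth near the authors' minimum of 10 reads would give. The largest differences between CON_P and CON_noP were 32.2 points at 112812602, 31.4 at 112812616 and 24.8 at both 112812608 and 112812613. Between MET_P and MET_noP they were 10.2 at 112812602, 9.83 at 112795538 and 9.11 at 112812633, with adjusted p between 0.931 and 0.953.

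RNF186 sites lay on chromosome 2 within 281 bases, from 132887631 to 132887911, and the study's annotation puts those it listed in an exon. At each of the 16 sites CON_P exceeded CON_noP on average, by 7.02 to 33.7 points. The gene mean was 28.1%, 43.8%, 32% and 54.6% in the CON_noP libraries and 64.4%, 62.0%, 53.4% and 29.7% in the CON_P libraries. S30 was lower than all CON_noP libraries but S12, and S28 was higher than S26, so the groups overlapped widely. It was 41.3%, 22.3%, 55.2% and 47.6% in MET_noP and 35.3%, 43.4%, 39.0% and 39.4% in MET_P. MET_P lay inside the range of MET_noP (difference -2.33 points, M value difference -0.09, SE 0.40, adjusted p = 0.987 by limma, exact permutation p = 0.771). The SD within the MET groups was larger than in 98.3% of the 5726 genes, and larger than in 95.6% of the 735 genes whose mean lay within 10 points of that of RNF186. The SD of 14.1 in MET_noP and of 3.32 in MET_P shows that MET_noP supplied most of it.

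The order of the libraries differed between the ends of the RNF186 run. Over the first 5 sites S26 had 32% and S16 25.3%, and over the last 11 sites, which start 89 bases further on, S26 had 63.1% and S16 52.3%. S12 went the other way, from 41.5% to 22.0%. Over the first 5 sites S26 took only the values 30% and 40%, and its later values included 66.7% and 44.4%. The ends fit different read counts and may come from different reads, which was not tested. The means were 35.4% and 52.4% (CON_noP and CON_P) over the first 5 sites and 41.5% and 52.4% over the last 11. The largest difference between CON_P and CON_noP was 33.7 points at 132887677, where the CON_noP libraries had 15.4%, 20%, 23.5% and 23.5%, and the CON_P libraries had 71.4%, 76.9%, 30% and 38.9%, without overlap. The next were 15.6 points at 132887655 and 15.1 at 132887631. In the methionine diet the largest were -9.89 points at 132887631, -9.40 at 132887881 and -6.93 at 132887677, with adjusted p between 0.953 and 0.968.

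Of the 84 sites, 0 passed the adjusted threshold between MET_P and MET_noP by limma (0% of all 199395 sites did, and the lowest adjusted p of the 84 was 0.890). The study did call sites between these groups, by logistic regression on counts, so the 0 holds for limma on percentages only. At 5 of the 84 the unadjusted p was under 0.05, and all 5 were lower in MET_P (background 5.12% in either direction, 2.55% lower and 2.57% higher). They were the first 3 ARHGEF3 sites, RSPH6A position 53342706 and ANKRD53 position 13438100, where the difference was -2.85 points at a level of at least 94.0% in every MET library. The mean was lower in MET_P at 47 of the 84 sites (background 48.1%), at 0 of the 84 without overlap in either direction (background 1.26% lower and 1.64% higher). Of the 48 sites that were more than 10 points higher in CON_P, 13 (27.1%) were more than 10 points lower in MET_P and 4 (8.33%) were more than 10 points higher. Of all 11891 sites more than 10 points higher in CON_P, 17.7% and 4.94% were so. The 13 sites were the first 6 of ARHGEF3 and 7 of RSPH6A, so they came from 2 stretches of DNA.

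**Figure D4:**
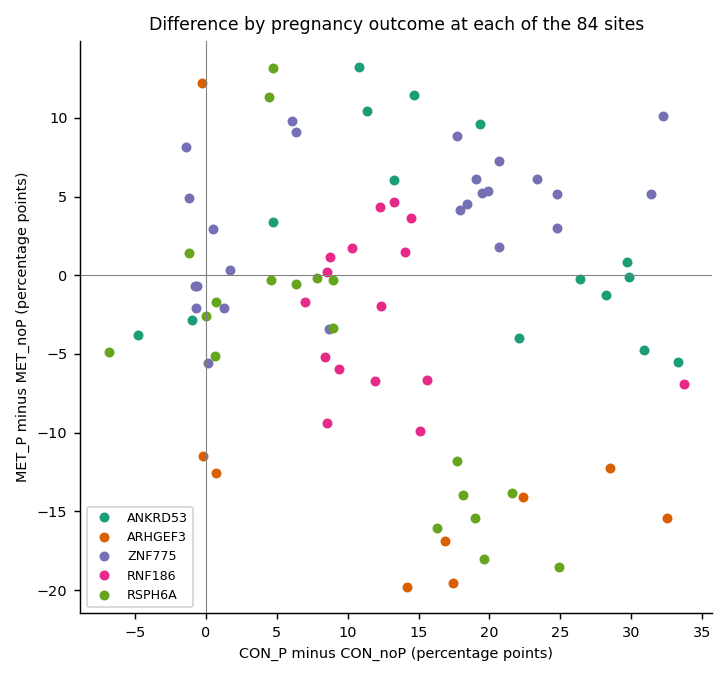
Difference in methylation between MET_P and MET_noP (vertical axis, percentage points) against that between CON_P and CON_noP (horizontal axis, percentage points) at the 84 sites, coloured by gene. The ARHGEF3 and RSPH6A sites with a large positive value on the horizontal axis have negative values on the vertical axis, down to -19.8, and the sites of ANKRD53, ZNF775 and RNF186 lie between -9.89 and 13.3.

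The diet difference within an outcome was of either sign. MET_noP had a higher gene mean than CON_noP in all 5 genes, by 13.6 points in ARHGEF3, 11.7 in RSPH6A, 8.40 in ZNF775, 2.97 in ANKRD53 and 1.95 in RNF186. MET_P had a lower gene mean than CON_P in all 5, by -13.3 points in ARHGEF3, -13.1 in RNF186, -12.8 in ANKRD53, -2.87 in RSPH6A and -0.27 in ZNF775. These signs share the CON values on which the genes were chosen. The order of the groups was CON_P, MET_P, MET_noP, CON_noP in ANKRD53 and ZNF775, with CON_P and MET_P only 0.27 points apart in ZNF775. It was CON_P, MET_noP, MET_P, CON_noP in ARHGEF3, where the first 2 and the last 2 groups differed by less than 1 SD. MET_noP was the highest group in RSPH6A, and MET_P was the lowest in RNF186.

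Single libraries stood high or low in several genes. S14 was the highest CON_P library in 4 of the 5 genes and S30 was the lowest in 4, while mean methylation over all sites was 65.1% in S14, 64.3% in S18, 62.2% in S26 and 62.2% in S30. Among the MET_noP libraries S25 was the highest in 4 genes and S17 the lowest in 4. The part of library-wide differences in the gene means was not tested. With each CON library left out in turn, CON_P exceeded CON_noP by 14 to 24.5 points in ANKRD53, 11 to 18.6 in ARHGEF3, 7.74 to 15.8 in ZNF775, 8.73 to 20.3 in RNF186 and 6.54 to 11.6 in RSPH6A. The value for ZNF775 was lowest without S16, and for RNF186 it was highest without S30.

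The nearest genes with sites on either side did not show differences of this size in the control diet, except OTUD3, a deubiquitinase gene, where 4 sites 55870 bases from RNF186 had 63.4% in CON_noP and 73.4% in CON_P. REPIN1, a zinc finger gene 4821 bases from ZNF775, differed by -0.73 points over 14 sites, and DMWD and SYMPK on either side of RSPH6A by 0.782 and 1.36. NAGK (3 sites, 32235 bases away) and VAX2 (60011 bases away) beside ANKRD53 differed by 1.51 and -1.17. IL17RD, 68715 bases from ARHGEF3, differed by -4.14, and TMCO4, 33632 bases from RNF186, by 0.509. The unnamed neighbours ENSBTAG00000051354 (1 site, 388372 bases from ARHGEF3) and ENSBTAG00000049318 (3 sites, 10673 bases from ZNF775) differed by -2.89 and 2.09. How far each difference reaches from its gene was not tested.

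Related genes were looked at in the methionine diet, where 0 genes of the lists given here passed the adjusted threshold. The median difference between MET_P and MET_noP was 0.284 points over all 8719 genes, of which 320 (3.67%) were higher and 167 (1.92%) lower at an unadjusted p under 0.05. Of 39 RNF genes 1 was higher and 2 were lower in MET_P at an unadjusted p under 0.05, with a median difference of 0.399 points, and RNF183 differed by -9.88 and RNF113A by 8.88 points. Of 22 ANKRD genes 4 were higher and 0 lower, with a median of 0.951, and ANKRD35 had 37.9% ± 4.66 in MET_noP and 48.0% ± 3.79 in MET_P (adjusted p = 0.810 by limma, n = 4), while ANKRD65 differed by 6.16. Of 99 ZNF genes 0 were higher and 1 was lower, with a median of 0.0397, and ZNF276 and ZNF703 differed by -9.63 and -7.55. Of 6 radial spoke and 8 motile cilium genes 0 had an unadjusted p under 0.05, with medians of 0.0931 and 0.424. RSPH9 and RSPH3, radial spoke proteins, differed by 4.25 and -3.91, and CCDC40 and TEKT1, proteins of the ciliary axoneme, by -5.48 and -4.23.

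Genes that mark the cell types of a cytobrush sample were measured in the same way, and a methylation level is not expression. Of 4 epithelial, 9 leukocyte, 5 stromal and 3 endothelial marker genes, 0 reached an unadjusted p under 0.05 in the methionine diet. The mean over the 4 epithelial genes was 19% to 24.6% over the CON_noP libraries, 18.8% to 27.9% over CON_P, 17.9% to 28.7% over MET_noP and 19.5% to 25.4% over MET_P. The mean over the 9 leukocyte genes was 54.0% to 57.3%, 51.5% to 61.5%, 52.2% to 56% and 56% to 57.6% in the same order. Of the 4 epithelial genes 1 had a higher mean in CON_P and 2 in MET_P, with medians of -0.60 and -0.04 points. In the control diet 5 of the 9 leukocyte, 0 of the 5 stromal and 2 of the 3 endothelial genes had a higher mean in CON_P. The median differences of these lists were 0.920, -1.74 and 0.402 points. MUC1, an epithelial mucin, differed by 11.7 points in the control diet and -8.12 in the methionine diet, and FOXA2, a transcription factor of uterine glands, by -0.39 and 1.68. In the methionine diet 6 of the 9 leukocyte genes had a higher and 3 a lower mean in MET_P, with a median of 1.81 points and values of -5.89 to 8.21, and PTPRC and LCP1 differed by 8.21 and 7.31. Of the 5 stromal genes 3 were higher and 2 lower on average, with a median of 0.0379, and PDGFRA and COL1A2 differed by -2.71 and -2.44. The 3 endothelial genes were lower on average, with a median of -1.09, and VWF and PECAM1 differed by -1.35 and -1.09. The part of cell composition in the differences of the 5 genes was not tested.

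The genes whose mean followed that of each gene most closely over the 16 libraries were found by Pearson's r among genes with at least 5 sites. The points share libraries and library-wide differences, so r is a description. For ARHGEF3 they were ENTPD8 (r = 0.916), SHB (0.908) and GRTP1 (0.904). ENTPD8, a nucleotide hydrolase, had 65.2% in CON_noP, 71.7% in CON_P, 74.1% in MET_noP and 66.5% in MET_P, the order of high and low groups seen in RSPH6A. For RNF186 they were TCF7L2 (0.897), CTSZ (0.889) and ZNF516 (0.877), and for RSPH6A they were ENSBTAG00000052848 (0.887), SSPO (0.876) and TAF3 (0.871). For ZNF775 they were MPST (0.832), ENSBTAG00000030340 (0.817) and ZNF384 (0.804), and for ANKRD53 they were WWC3 (0.813), WNT9A (0.804) and PRRC2B (0.798).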

How the data were processed

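Endometrial cytobrush DNA was profiled by RRBS in 16 libraries, 4 per group. Reads were trimmed (Trim Galore), mapped with Bismark to the ARS-UCD1.2 assembly and merged by library (SAMtools) by the authors, who quantified methylation in SeqMonk at positions with at least 10 reads, leaving out positions without a value or at zero. The values they deposited are percent methylation per cytosine position, with a gene label and no read counts. No normalization between libraries is stated, and the depth per library is unknown, so the logistic regression of the study on counts could not be repeated. Columns were assigned to groups by the group name above them.

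A gene value was the mean percent over its sites, grouped by gene ID. Values were transformed to M = log2((percent + 1)/(100 - percent + 1)) and tested with limma 3.58.1 in R 4.3.3 (empirical Bayes without trend), with the 8 MET libraries in the model, Benjamini-Hochberg adjustment over all sites or genes and a threshold of 0.05. Clusters of at least 3 sites with neighbours up to 100 bases apart were added after seeing the data, and the stretches described within genes were chosen after their values were seen. Two-sided exact permutation tests used percent, over the 70 ways to assign 4 of 8 libraries to MET_P. The limma step was run on simulated data with independent noise at each site or gene, as a check of the code only. Summaries and permutations used Python 3.11.15 (pandas 2.3.3, numpy 2.4.6), plots used matplotlib 3.10.9 and model input used data.table (version 1.17.8).

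The members and lists were chosen with earlier results of these data known. Sites named were, in each gene, the 3 largest differences in each diet and all with an unadjusted p under 0.05. The 2 largest differences of each list, the 3 most similar genes and the nearest neighbours were also named. Other sites given by position were chosen after their values were seen. Alternatives were untransformed percent, an offset of 0.1, moderation with trend, sites of 10% to 90%, centred libraries, all libraries in 1 model, library-number sets as a block, medians, merged strands, averaged clusters, leaving out each library, and only genes with 5 or more sites. Coordinates are those of ARS-UCD1.2 as deposited. Sequences and promoters were not analysed here, and 1 list of related genes is not reported here.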

Additional observations from a re-analysis of the deposited data

Results flagged for a closer look

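The ANKRD53 gene mean of CON_noP library S16 was 43.6%, apart from the other 3 libraries at 57.9% to 58.8%, and its gap divided by the range of the group exceeded Dixon's 95% critical value for 4 values. Among 20 sets of 4 gene means tested, 1 was marked, and chance marks about 1 in 20. Without S16 the difference between CON_P and CON_noP in ANKRD53 was 14.3 points, against 17.9 with it.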

How the results depend on the processing

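No paired analysis was possible because the columns carry library numbers and not the replicate numbers of the labels. Sets of consecutive library numbers as a block moved the member sites with an unadjusted p under 0.05 from 5 to 3, and an offset of 0.1 percentage points moved them to 2. Leaving out each library gave 1 (without S27) to 9 (without S15), with 3 without S13 or S29 and 2 without S25 or S31. None of the 5 genes or 84 sites passed the adjusted threshold under any alternative run. Over all sites, 282 passed with an offset of 0.1, and over all genes 2 passed with the median over sites, MTBP and RNF152, named after their values were seen. Their counts in all other settings were 0. The difference between CON_P and CON_noP was 7.31 in ARHGEF3 and 5.41 in ZNF775 with clusters averaged first, and 17.8 in RSPH6A, 20.6 in ZNF775 and 8.56 in ANKRD53 with the median over sites. That between MET_P and MET_noP was -5.38 in ARHGEF3, -1.43 in RSPH6A and 1.59 in ZNF775 with clusters averaged first, and -12.7 in RSPH6A, 5.80 in ZNF775, 5.45 in ANKRD53 and -1.30 in RNF186 with the median. Between MET_P and MET_noP, leaving out 1 library gave -0.0698 (without S27) to 4.30 points in ANKRD53, -0.0703 (without S17) to 5.89 in ZNF775, -8.77 to 2.20 (without S25) in RNF186, -15.1 to -9.43 in ARHGEF3 and -7.56 to -4.01 in RSPH6A. The largest clusters ranged from -6.20 to 2.92 in ANKRD53, -1.28 to 9.61 in ZNF775 and -8.77 to 2.20 in RNF186. Sites that turned sign ranged from -17.9 to 0.455 (RNF186, 132887631), -17.7 to 2.79 (132887655), -2.97 to 6.01 (ZNF775, 112812608), -2.10 to 8.21 (112812616) and -5.35 to 4.02 (ANKRD53, 13442558). Of the sites with the largest MET differences, ANKRD53 13442334, 13442338 and 13442367 ranged from 4.14 (without S25) to 19.7 (without S19), and ZNF775 112812602 and 112812633 from 2.21 (without S17) to 16.1 (without S25). The cause of these moves was not tested. Centring changed the genes with an unadjusted p under 0.05 from 320 higher and 167 lower in MET_P (65.7% higher) to 237 and 227 (51.1%), and clusters from 758 and 685 (52.5%) to 584 and 914 (39.0%). The restriction to sites of 10% to 90% left out 12 of the 84 sites (8 of ZNF775, 2 of ANKRD53 and 2 of RSPH6A), so it was run on 72 of them. The read counts behind single percentages were not given beyond the authors' minimum, so their precision was not computed.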
